A study of Mus musculus with 6 samples.

Results

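Macrophage island transcripts were followed in erythroid cells sorted from the mouse fetal liver. The set held 10 mRNAs picked by name as products of the macrophage at the centre of an erythroblastic island: the complement chains C1qa, C1qb and C1qc, the secreted or surface scavenger proteins Cd5l and Marco, the adhesion molecule Vcam1, the phagocyte lysosome and defence genes Lyz2, Ctss and Mpeg1, and the growth factor receptor Csf1r. Each of the 10 had 1 row to itself among the 23094 rows of the expression table that carry a gene name, and the choice of members used no expression value from the table. The members were nevertheless proposed with earlier results of these data known.

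Fetal liver erythroblasts mature in clusters around a central macrophage, which holds them by adhesion molecules, supplies iron, and engulfs and digests the nuclei that they expel. C1q is the recognition part of the first complement component and is made mainly by tissue macrophages, from chains that assemble as equal partners. Macrophage membrane is known to cling to erythroblasts when islands are dispersed, and the sort was set on Ter119, an antigen of erythroid cells, and CD71, which erythroblasts carry in abundance but which macrophages and dividing cells also carry.

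The cells came from C57BL/6 mice at embryonic day 13.5 and carried either wild-type Tfam (Tfam WT, n = 3) or a Tfam knockout (Tfam KO, n = 3). Tfam encodes a mitochondrial protein that compacts mitochondrial DNA and helps to transcribe it. How the allele was deleted, with which Cre or promoter if any, and whether each library was 1 embryo or a pool is not stated in the labels, so p-values reflect only the spread among the 3 libraries of a group, which may be technical. In bulk RNA, fewer cells of a type and less RNA per cell cannot be told apart.

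Values were deposited as RPKM, read numbers divided by transcript length and by the mapped total of the library. Very low RPKM values lay on steps that correspond to single sequenced fragments, and from these steps the depth was estimated at about 13600000 fragments for WT replicate 3 and 23900000 to 28600000 for the other 5 libraries. WT replicate 3 stood apart in other ways as well. Its summed RPKM was 814665 against 422534 to 535013 elsewhere, and relative to the mean of all libraries it was shifted by a median of 0.66 on the log2 scale for the shortest 1652 tested genes and by -0.53 for the longest 1650. The fitted values of the members and the counts for the lists of other macrophage genes are therefore given with and without it. Tfam itself ranged from 5.72 to 8.44 RPKM in WT and from 5.92 to 7.22 in KO, so its gene-level value does not check the labels. Erythroid markers were high in all libraries: the transferrin receptor Tfrc (CD71) was at 614 to 951 RPKM and the erythroid heme synthesis gene Alas2 at 2094 to 5510. Against these levels the 10 members were minor. Together they summed to 9.18 to 34.7 RPKM per library, equal to an estimated 0.00147% to 0.00517% of mapped fragments, and a single member rested on an estimated 8 to 259 fragments in a library.

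The DNA upstream of members whose groups did not overlap gives a view of their control regions. Of the 10 genes, 7 had an entry in the RefSeq promoter table (build GRCm38.p6). The 250 bases before the start site are shown for C1qb, Cd5l and Marco, because in these the groups did not overlap. The groups of Csf1r did not overlap either, but it had no entry. C1qb is at chr4:136886201-136886450 (reverse strand), Cd5l at chr3:87357631-87357880 (forward strand) and Marco at chr1:120505025-120505274 (reverse strand), each written 5′ to 3′ along its gene. Capitals mark the core of the motif bound by PU.1, a transcription factor of the myeloid lineage, searched as GAGGAA on both strands.
C1qb: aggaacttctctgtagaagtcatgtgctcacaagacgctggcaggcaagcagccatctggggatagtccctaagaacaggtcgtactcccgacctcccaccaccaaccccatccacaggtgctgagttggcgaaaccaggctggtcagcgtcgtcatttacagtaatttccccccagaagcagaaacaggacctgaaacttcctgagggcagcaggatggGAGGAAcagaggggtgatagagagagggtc
Cd5l: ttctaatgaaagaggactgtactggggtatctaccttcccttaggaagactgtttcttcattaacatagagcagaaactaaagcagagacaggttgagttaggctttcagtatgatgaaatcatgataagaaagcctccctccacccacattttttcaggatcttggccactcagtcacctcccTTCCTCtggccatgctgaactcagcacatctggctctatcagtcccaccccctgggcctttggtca
Marco: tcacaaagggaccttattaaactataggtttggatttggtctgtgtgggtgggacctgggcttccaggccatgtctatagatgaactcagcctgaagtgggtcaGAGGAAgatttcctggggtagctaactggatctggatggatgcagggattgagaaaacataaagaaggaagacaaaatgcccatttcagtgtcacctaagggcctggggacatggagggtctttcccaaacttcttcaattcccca
GAGGAA or its reverse complement TTCCTC was present in 5 of the 7 windows (those of C1qb, C1qc, Cd5l, Ctss and Marco) and in 23.3% of 32851 windows of the same length over all genes. The core TGCTGAC, bound by Maf factors, searched the same way, was in 0 of the 7 and in 3.81% of all windows. These are matches of letters and do not show binding.

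The C1q chains were lower on average in KO than in WT, with the extremes of both groups in the libraries numbered 3. C1qa was at 1.45, 1.08 and 3.28 RPKM in WT replicates 1, 2 and 3 and at 0.894, 1.58 and 0.572 in KO replicates 1, 2 and 3. C1qb was at 2.98, 2.66 and 6.05 RPKM in WT and at 2.08, 2.56 and 1.34 in KO. C1qc was at 2.32, 2.48 and 3.66 RPKM in WT and at 1.51, 2.67 and 1.11 in KO. All 3 chains were highest in WT replicate 3 and lowest in KO replicate 3. For C1qa and C1qc the groups overlapped, because KO replicate 2 exceeded WT replicates 1 and 2, while for C1qb the highest KO library lay just below the lowest WT library. Group means were 1.94 ± 1.18 and 1.02 ± 0.517 RPKM for C1qa (SD, n = 3 each, WT then KO), 3.90 ± 1.87 and 1.99 ± 0.615 for C1qb, and 2.82 ± 0.731 and 1.76 ± 0.808 for C1qc. Log2 fold changes of KO over WT, on the log2(RPKM + 1) scale that understates differences of low genes, were -0.50 (SE 0.31) for C1qa, -0.67 (SE 0.29) for C1qb and -0.49 (SE 0.25) for C1qc, each with a limma adjusted p of 0.909. Without WT replicate 3 they were -0.20, -0.37 and -0.34, and without KO replicate 3 that of C1qc was -0.31. Without both libraries numbered 3 they were -0.031 for C1qa, -0.21 for C1qb and -0.16 for C1qc. The 3 genes lie side by side on chromosome 4 in the order C1qb, C1qc, C1qa. The RPKM ratio of C1qc to C1qb was 0.605 to 0.932 in all libraries but KO replicate 2, where it was 1.04. C1qb exceeded C1qa in every library, by a ratio of 1.62 to 2.46, and C1qc exceeded C1qa by 1.12 to 2.29.

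**Figure D1:**
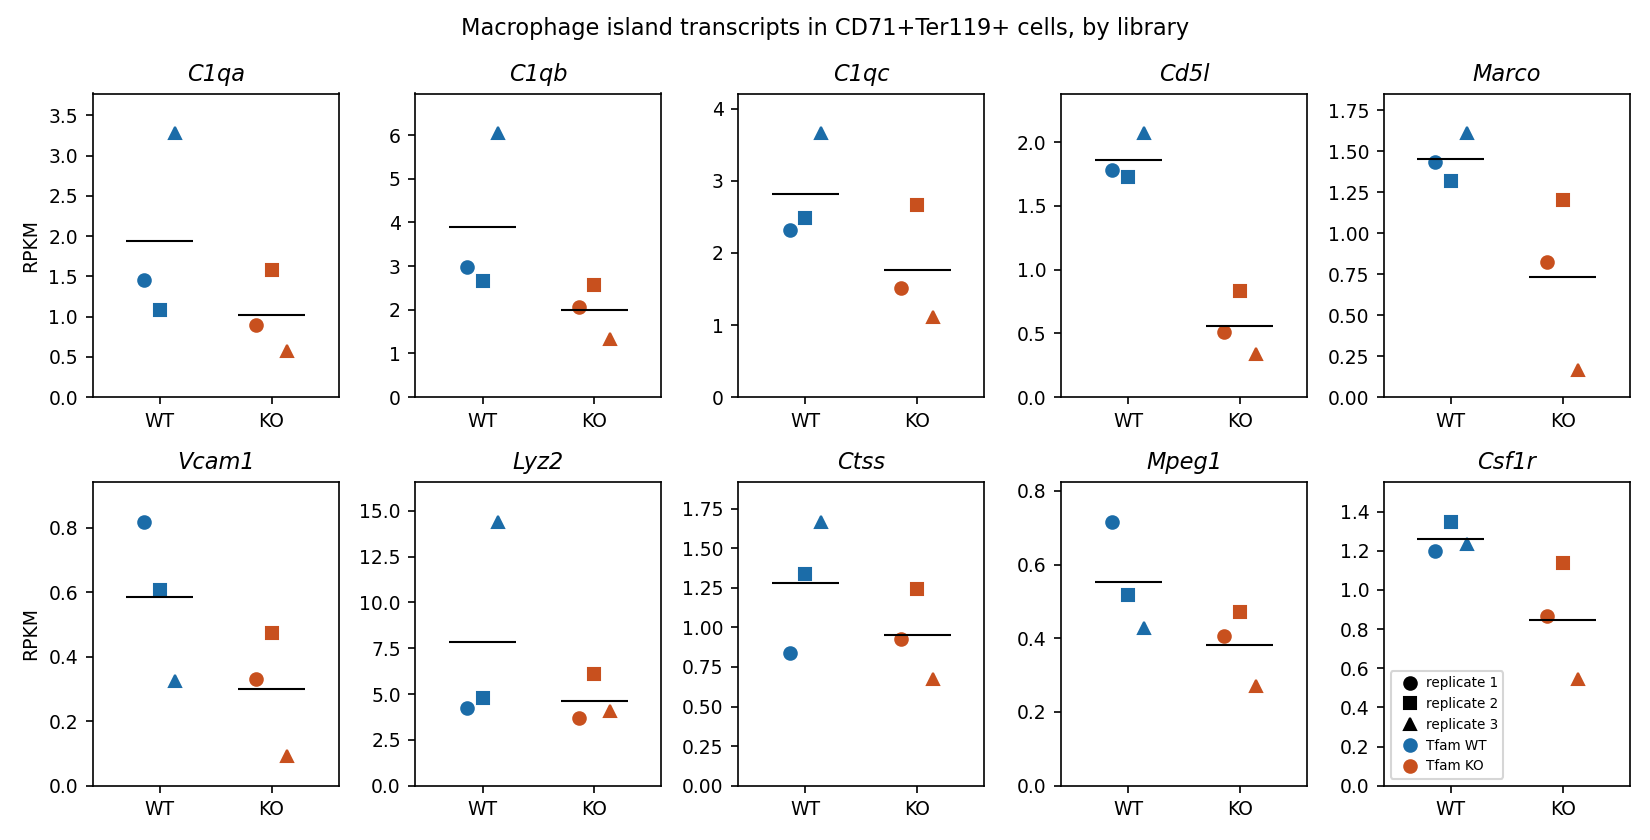
RPKM of each member (vertical axis, from 0, scaled per panel) in the 3 WT and 3 KO libraries, with symbols for the replicate number and a line at the group mean. Cd5l is at 1.73 to 2.07 RPKM in WT and 0.342 to 0.830 in KO, while C1qa, C1qc and Lyz2 overlap between groups.

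Cd5l had the largest fitted difference among the members. Cd5l, also called AIM, is a secreted scavenger receptor family protein typical of resident macrophages. It was at 1.78, 1.73 and 2.07 RPKM in WT and at 0.508, 0.830 and 0.342 in KO, so the 3 WT libraries were close together and every KO library lay at less than 1 RPKM. The means were 1.86 ± 0.185 and 0.560 ± 0.248 RPKM (SD, n = 3), a KO to WT ratio of 0.301. The log2 fold change was -0.88 (95% interval -1.28 to -0.48), with an unadjusted limma p of 0.00119. Cd5l did not pass after adjustment over all genes (adjusted p = 0.909), and with limma 0 of 8302 genes passed (0.0% of those tested), while 100 had an unadjusted p under 0.05. Of those 100 genes, 38 were lower in KO, Cd5l among them, or 0.458% of genes tested. The fold change was -0.83 (95% interval -1.26 to -0.41) without WT replicate 3 and -0.73 (95% interval -1.09 to -0.37) without both libraries numbered 3. The estimated support was 58 to 101 fragments in the WT libraries and 17 to 40 in the KO libraries.

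Marco, a scavenger receptor that binds bacteria and particles, was also lower in every KO library than in any WT library. Its level was 1.43, 1.32 and 1.61 RPKM in WT and 0.826, 1.20 and 0.164 in KO. KO replicate 2 came close to the WT range and KO replicate 3 lay far below it, on an estimated 8 fragments. The means were 1.45 ± 0.146 and 0.730 ± 0.525 RPKM, with a log2 fold change of -0.55 (SE 0.25, limma adjusted p = 0.909). Leaving out WT replicate 3 gave -0.51, leaving out KO replicate 3 gave -0.29, and leaving out both gave -0.24 (SE 0.14).

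Vcam1, which binds the integrin VLA-4 on erythroblasts and so ties them to the macrophage, was below 1 RPKM in every library. It was at 0.820, 0.607 and 0.326 RPKM in WT and at 0.333, 0.475 and 0.0935 in KO. WT replicate 3 lay below 2 of the KO libraries, so the groups overlapped, and the lowest value, in KO replicate 3, rested on an estimated 8 fragments. The log2 fold change was -0.28 (SE 0.15) with all libraries and -0.41 (95% interval -0.77 to -0.041) without WT replicate 3. It was smaller without WT replicate 1 (-0.18) or KO replicate 3 (-0.16). The fits with all libraries and without WT replicate 3 gave no call, with limma adjusted p of 0.931 and 1 in fits that took in all 15868 rows above 0 in a library. The erythroblast side of this contact was abundant. Itga4, the alpha chain of VLA-4, was at 64.6, 70.4 and 24.6 RPKM in WT and at 77.3, 59.1 and 66.0 in KO. Itgb1, its beta chain, was at 23.7, 25.3 and 15.5 RPKM in WT and at 27.1, 25.8 and 22.9 in KO. Both chains were lowest in WT replicate 3 and otherwise similar in range between groups. Maea, an adhesion protein described on both cell types, was at 25.6 to 29.9 RPKM in WT and 23.3 to 26.1 in KO. The row of Icam4, an erythroid ligand of macrophage integrins, is shared with Icam5 and was at 314 to 838 RPKM in WT and 266 to 438 in KO. Cd47, the signal that restrains engulfment, was at 189 to 368 RPKM in WT and 178 to 279 in KO. The integrin chain Itgav, the ephrin pair Ephb4 and Efnb2, and the actin-associated protein Palld were at most 0.210 RPKM in any library. None of the 5 tested rows of this adhesion list passed.

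The groups overlapped in each of the 3 lysosome and defence genes. Lyz2, the lysozyme of macrophages and neutrophils, was the most abundant member at 4.25, 4.80 and 14.4 RPKM in WT and 3.68, 6.08 and 4.07 in KO. Only WT replicate 3 stood out, and the groups otherwise occupied the same range. The log2 fold change was -0.49 (SE 0.42) with all libraries and -0.00018 (95% interval -0.44 to 0.44) without WT replicate 3, but -0.78 without WT replicate 1. Ctss, the protease cathepsin S that trims the invariant chain in antigen presentation, was at 0.841, 1.34 and 1.67 RPKM in WT and at 0.930, 1.24 and 0.673 in KO. Its log2 fold change was -0.22 (SE 0.20), or -0.10 without WT replicate 3. Leaving out KO replicate 3 gave -0.12, and leaving out WT replicate 1 gave -0.37. Mpeg1, which encodes the pore-forming protein perforin-2, was at 0.717, 0.517 and 0.428 RPKM in WT and at 0.406, 0.470 and 0.271 in KO. KO replicate 2 overlapped WT replicate 3, and the log2 fold change was -0.17 (SE 0.092). Without WT replicate 3 the groups of Mpeg1 did not overlap and the value was -0.23, while it was -0.093 without WT replicate 1 and -0.11 without KO replicate 3. The limma adjusted p was 0.909 for Lyz2 and Ctss and 0.931 for Mpeg1.

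Csf1r, the receptor on which macrophages depend for survival and growth, was uniform in WT and lower in each KO library. It was at 1.20, 1.35 and 1.24 RPKM in WT and at 0.865, 1.14 and 0.545 in KO. The groups did not overlap, although KO replicate 2 lay just under WT replicate 1. The means were 1.26 ± 0.0783 and 0.848 ± 0.296 RPKM, and the log2 fold change was -0.30 (SE 0.17, limma adjusted p = 0.909), or -0.31 without WT replicate 3 and -0.18 without KO replicate 3.

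**Figure D2:**
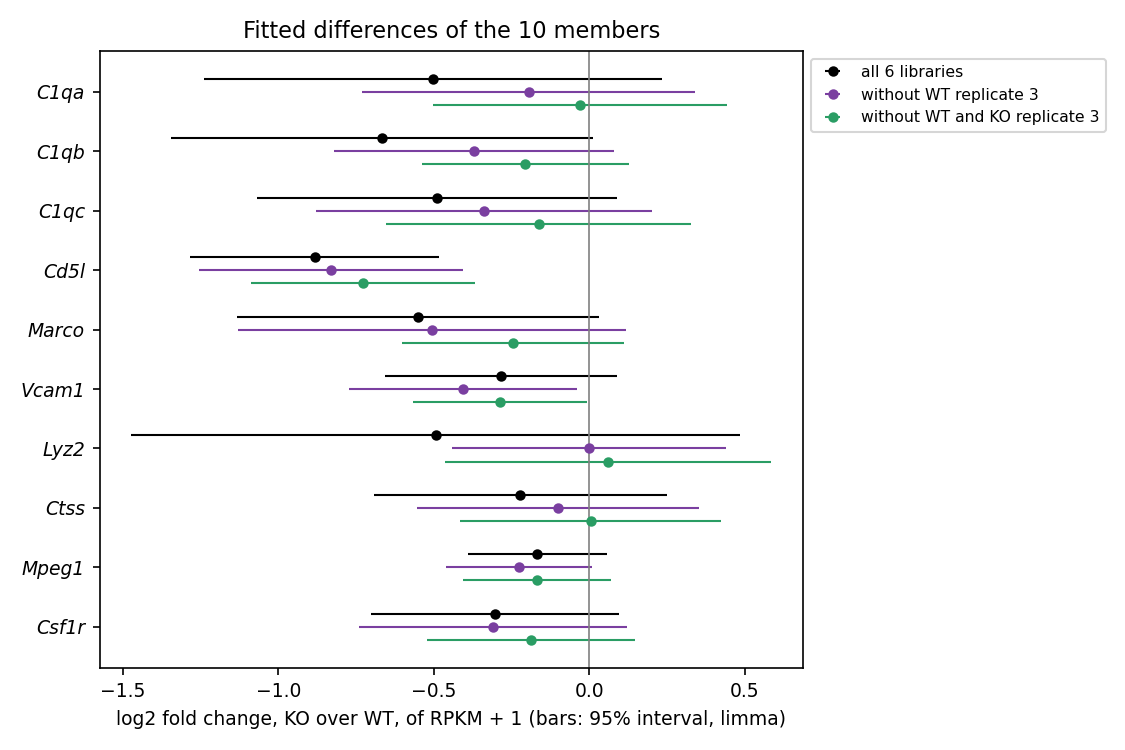
Log2 fold change of KO over WT for each member (points, horizontal axis, RPKM + 1) with the 95% limma interval, from all 6 libraries, without WT replicate 3, and without WT and KO replicate 3. The interval of Cd5l stays below 0 in the 3 fits, and that of Lyz2 spans 0 in each.

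Across the 10 members, the fitted value was lower in KO for 10, against 45.9% of the 15868 rows above 0 in a library. Over the 8302 tested rows the share was 53.0%. The median log2 fold change was -0.49, against 0.0047 over the 15868 rows and -0.019 over the tested rows. In 4 members (C1qb, Cd5l, Marco and Csf1r) the KO libraries were all below the WT libraries, against 2.16% of the 15868 rows. Without WT replicate 3 this held for 6 members, against 5.8% of the 15868 rows, with Vcam1 and Mpeg1 added. In that fit 10 members had a lower fitted value, against 50.2% of the 15868 rows and 55.0% of tested rows. The median over the members was then -0.32. It was -0.30 without KO replicate 3. Without both libraries numbered 3 the median was -0.18 and 8 of 10 members had a lower fitted value. The share was then 48.1% of the 15868 rows and 59.9% of tested rows. No member passed the limma test in any of these fits. A mean of at least 1 RPKM, the filter of the main test, was met by 8 members. For Cd5l, Marco, Ctss and Csf1r it was met through the WT libraries, since their KO means were below 1, so the 8 are not a fair sample of the 10.

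The difference was unequal across replicate numbers, which the labels share between groups. The labels do not state that libraries of the same number were matched, so the ratios below are not those of known pairs. Between the libraries numbered 3 all 10 members were lower in KO, with a median KO to WT ratio of 0.285. Between those numbered 1 the count was 9 of 10 and the median ratio 0.634, with Ctss the exception. Between those numbered 2 it was 7 of 10 and the median ratio was 0.919, with C1qa, C1qc and Lyz2 higher in KO. In 6 members KO was lower within each number, against 13.3% of rows above 0 in a library. Cd5l was the member with the lowest ratio in 2 of the 3 numbers, at 0.286, 0.481 and 0.165. KO replicate 3 held the lowest value of 9 members and WT replicate 3 the highest of 7.

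**Figure D3:**
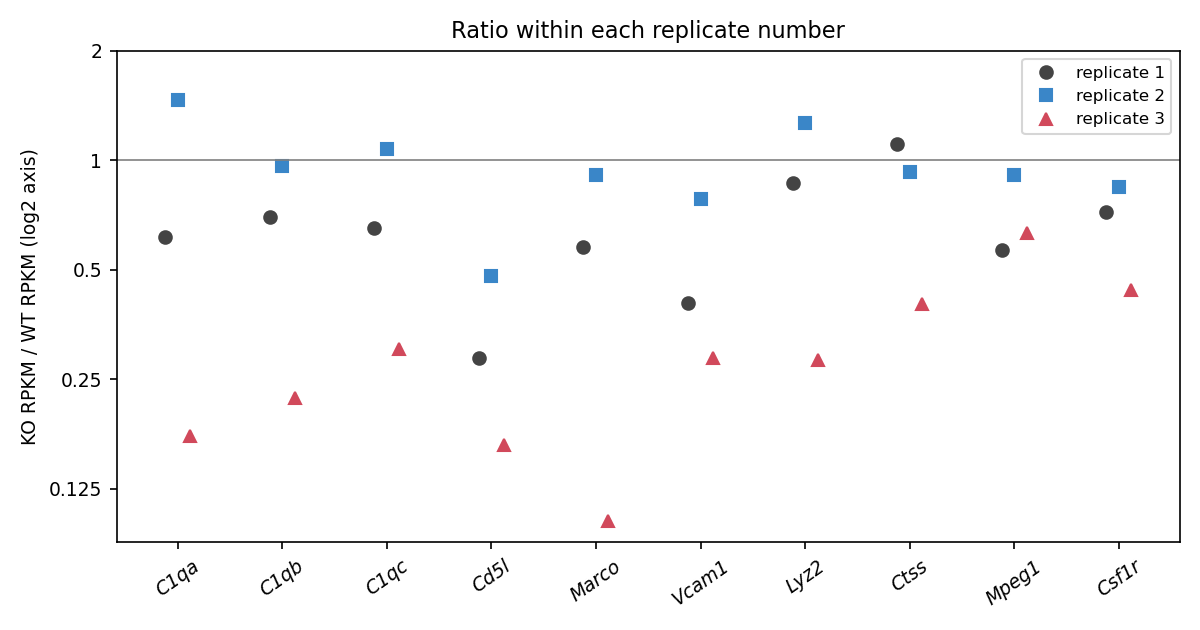
Ratio of KO to WT RPKM for each member between libraries of the same replicate number, on a log2 axis with a line at 1. Ratios for the libraries numbered 2 run from 0.481 for Cd5l to 1.46 for C1qa, and those for the libraries numbered 3 are the lowest for 9 of 10 members.

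Ratios between members of the same library are unaffected by anything that scales all of them alike. Relative to the summed RPKM of the C1q chains, Cd5l was at 0.264, 0.277 and 0.159 in WT and at 0.113, 0.122 and 0.113 in KO. The 3 KO libraries were nearly alike, and each was below every WT library. Marco relative to C1q was at 0.212, 0.212 and 0.124 in WT and at 0.184, 0.176 and 0.0543 in KO, with overlap. Csf1r relative to C1q was at 0.178, 0.217 and 0.0952 in WT and at 0.193, 0.167 and 0.180 in KO, also with overlap. The low WT value in each case came from WT replicate 3, the library shifted by transcript length. The C1q mRNAs have 1040 to 1203 bases, that of Cd5l 2036 and that of Csf1r 4701, and the part of the length shift in these ratios was not tested.

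**Figure D4:**
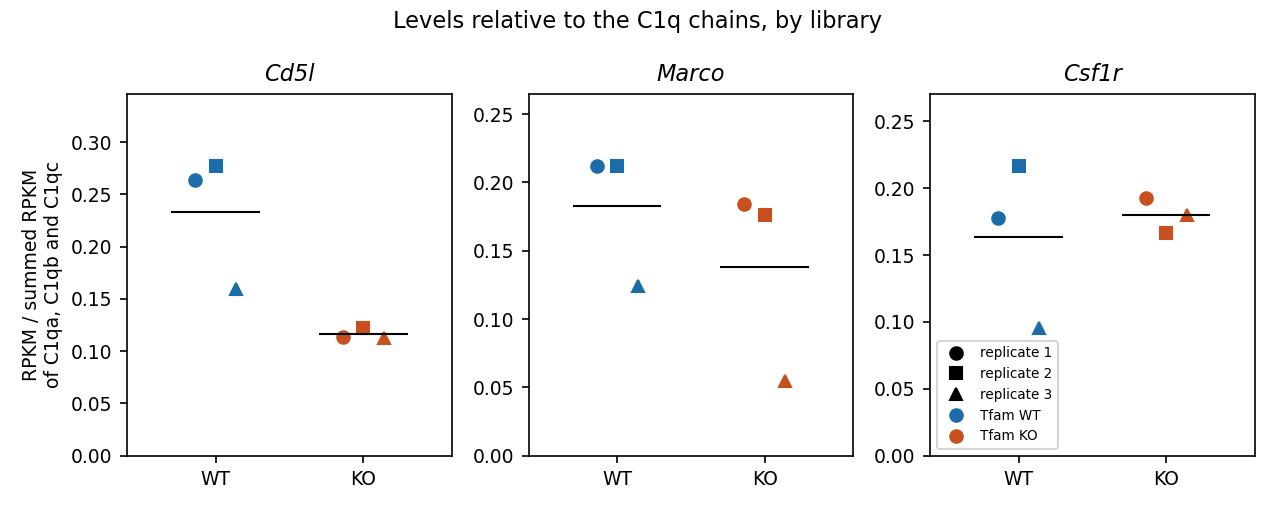
RPKM of Cd5l, Marco and Csf1r divided by the summed RPKM of C1qa, C1qb and C1qc in each library (vertical axis, from 0), with the group mean as a line. Cd5l is at 0.113 to 0.122 in KO and 0.159 to 0.277 in WT, and the other genes overlap.

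Other genes of the macrophage were examined by role. Among 17 measured genes of macrophage receptors and immune signalling on rows of their own, 12 had a lower and 5 a higher fitted value in KO with or without WT replicate 3, and 0 of the 3 tested passed. The row of Cd68 is shared with Eif4a1. The most abundant of the others were the adaptors Tyrobp (2.76 to 9.52 RPKM in WT, 1.47 to 2.93 in KO) and Fcer1g (2.48 to 4.03 and 1.46 to 4.71), and the lysosomal membrane protein Laptm5 (2.01 to 2.60 and 0.955 to 2.93). Fcer1g and Laptm5 were each highest in KO replicate 2. The island macrophage antigen F4/80 (listed as Emr1) was at 0.771, 0.662 and 0.359 RPKM in WT and at 0.322, 0.701 and 0.273 in KO. Siglec1 was at most 0.0719 RPKM in any library, and Cd163 and Vsig4 were listed at 0 in all. One gene, the integrin chain Itgam, was higher in every KO library (0.145 to 0.294 RPKM) than in any WT library (0.120 to 0.139). Over all rows above 0 in a library 3.21% were higher in KO in this way.

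Genes for engulfment and digestion of nuclei gave 11 lower and 4 higher fitted values among 15 on rows of their own, or 9 and 6 without WT replicate 3, with 0 of 6 tested past the threshold. The lysosomal proteases Ctsb (278 to 548 RPKM in WT, 262 to 391 in KO) and Ctsd (156 to 297 and 166 to 213) and the membrane protein Lamp1 (67.2 to 85.8 and 59.2 to 86.2) were far above any macrophage marker, so these rows cannot be read as macrophage RNA. Timd4, a phosphatidylserine receptor of resident macrophages, was at 0.426, 0.349 and 0.406 RPKM in WT and at 0.321, 0.237 and 0.114 in KO, without overlap. Its log2 fold change was -0.19 (SE 0.068, adjusted p = 0.931 with limma over all rows above 0 in a library). Of 10 measured macrophage transcription factors 6 had a lower and 4 a higher fitted value, or 5 each without WT replicate 3, and 0 of 3 tested passed. Cebpb, a leucine zipper factor of myeloid cells and the most abundant of the list, was at 1.57, 1.96 and 4.22 RPKM in WT and at 2.98, 4.44 and 2.86 in KO. The groups overlapped through WT replicate 3, and the log2 fold change was 0.36 with all libraries (limma adjusted p = 0.909) and 0.67 without that library. Spi1, which encodes PU.1 and is listed as Sfpi1, was at 2.85, 1.68 and 3.10 RPKM in WT and at 2.23, 2.48 and 1.52 in KO. Spic, a related factor needed for iron-recycling macrophages, was at 0.468, 0.363 and 0.562 RPKM in WT and at 0.201, 0.247 and 0.161 in KO. For Spic the highest KO library was below the lowest WT library, with a log2 fold change of -0.28 (SE 0.061, limma adjusted p = 0.931 over the same rows). Maf, a factor of resident macrophages, had the opposite sign at 0.32 (SE 0.13, limma adjusted p = 0.931), with 0.223, 0.208 and 0.0741 RPKM in WT and 0.473, 0.731 and 0.215 in KO. Its groups overlapped, because KO replicate 3 lay between the WT libraries. Timd4 and Spic were each the only gene of their list to be lower without overlap, against 2.16% of rows above 0 in a library. Both were named after their values were seen.

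Other cell types were measured beside the members, because their levels moved between the same libraries. Summed RPKM of 8 megakaryocyte markers on rows of their own was 61.1, 58.6 and 34.0 in WT and 51.3, 71.0 and 18.6 in KO. Pf4, the most abundant of them, ranged from 18.3 to 26.8 RPKM in the libraries numbered 1 and 2 and was 4.67 for WT and 1.17 for KO among those numbered 3. Summed RPKM of 10 hepatocyte markers was 87.9, 57.1 and 42.2 in WT and 82.7, 139.7 and 15.3 in KO, with Afp, Alb and Trf leading. KO replicate 3 thus had the lowest sum for both types and for the 10 members, and it held the lowest value of 9 of 10 hepatocyte markers and 7 of 8 megakaryocyte markers. WT replicate 3 was second lowest for both types but highest for the members. It also had the highest summed RPKM over all named rows (814665 against 422534 to 535013 elsewhere) and was shifted upward for the shortest genes. Lyz2 and C1qb, with mRNAs of 1316 and 1088 bases, made up 41.5% and 17.4% of its member sum. The part of this scale in its rank was not tested. Summed RPKM of 11 neutrophil markers was 41.0, 41.5 and 177.1 in WT and 30.1, 77.5 and 56.6 in KO, led by S100a8, S100a9 and Mpo. Like Lyz2, which neutrophils also make, this list was highest in WT replicate 3, followed by KO replicate 2. Sums for 9 endothelial markers, a type that can also make Vcam1, were 5.30 to 6.80 in WT and 5.58 to 7.56 in KO. At least 3.83 RPKM of the sum in each library was Vwf, which megakaryocytes also make, and no other endothelial marker exceeded 0.667. The T cell marker Cd3e was listed at 0 in all libraries. Among 13 macrophage markers above 0 on rows of their own, 13 had a lower fitted value with or without WT replicate 3. They include the 10 members counted above, and add only Emr1, Siglec1 and Timd4. Over all rows above 0 in a library the share was 45.9%, or 50.2% without WT replicate 3. Over the tested rows it was 53.0%, or 55.0% without that library. Of megakaryocyte markers 7 of 8 were lower in both fits. Of neutrophil markers 10 of 11 were lower, or 5 of 11 without WT replicate 3. Hepatocyte markers gave 5 of 10, or 8 of 10 without it, and endothelial markers 1 of 9 in both fits. The part of these other cell types in the differences of the members was not tested.

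**Figure D5:**
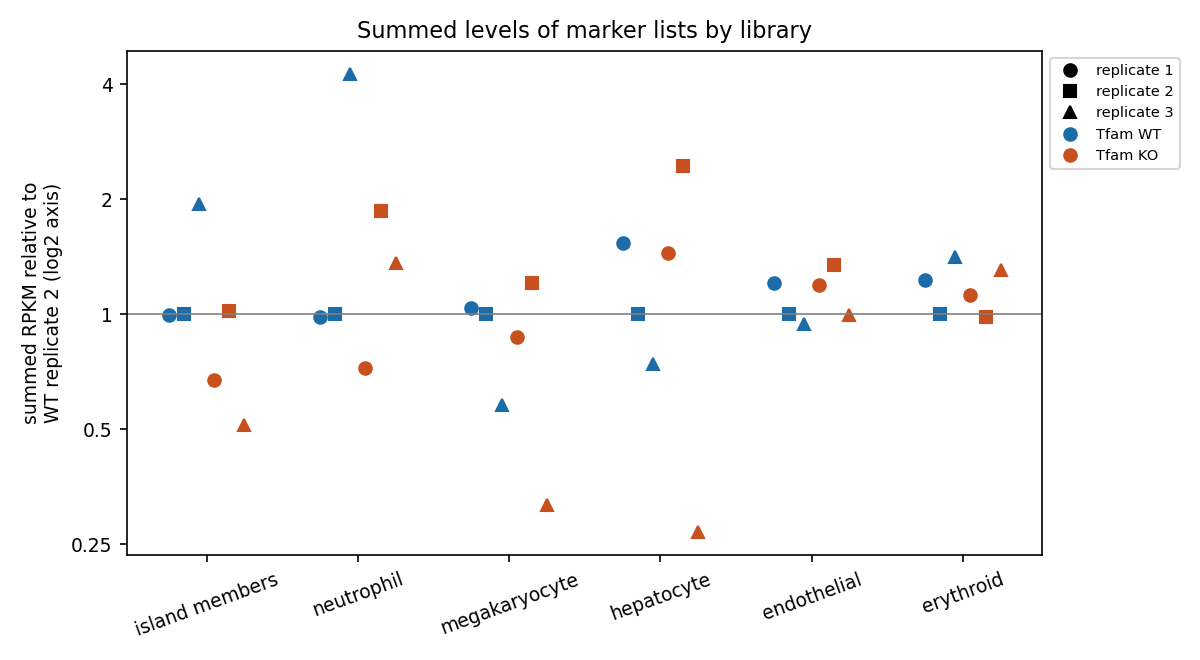
Summed RPKM of the 10 members and of 5 marker lists in each library, relative to WT replicate 2, on a log2 axis. KO replicate 3 is lowest for the members, megakaryocyte and hepatocyte lists, and WT replicate 3 is highest for the members and the neutrophil list. WT replicate 3 also has the highest summed RPKM over all named rows.

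The genes whose levels followed the members most closely were sought among tested rows other than the members. Of the lists above, only 3 of 17 receptor and immune signalling genes and 3 of 10 macrophage transcription factors were tested. That none of these ranked highest therefore says little. Over the 6 libraries, the highest Pearson correlations with the mean log2(RPKM + 1) of the 10 members, among 7960 tested genes on rows of their own, were those of the linker histone Hist1h1b (0.98), the myosin light chain Myl7 (0.98), Tbc1d22a (0.98), 9530027J09Rik (0.98) and Tysnd1 (0.97). Over the 5 libraries without WT replicate 3 they were those of the platelet glycoprotein gene Gp9 (0.99), C030039L03Rik (0.99), Skap2 (0.99), Ccdc137 (0.99) and Mlec (0.99). The 2 sets of genes share no name. No other library was left out of the ranking, so whether this turnover is particular to WT replicate 3 was not tested. With so few libraries and so many genes ranked, such values are a description only.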

How the data were processed

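RNA of CD71+Ter119+ fetal liver cells was measured in 3 Tfam WT and 3 Tfam KO libraries made with a TruSeq kit from total RNA, per the labels' protocols. The RPKM values are those the authors deposited, made with TopHat and Cufflinks on build mm9 per the submitters' processing notes. No source used here gives software versions, gene annotation or strandedness. Since RPKM is scaled by length and library total, a library poor in long transcripts shifts genes by their length.

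Of 23119 rows, 25 with a number for a name were left out (mean 0.158% of summed RPKM). Rows averaging 1 RPKM or more (8302) were tested with limma 3.58.1 (R 4.3.3, two-sided) on log2(RPKM + 1), with its variance trend and Benjamini-Hochberg adjustment at 0.05. Members under that filter, and medians and counts over all 10, came from the same fit to the 15868 rows above 0 in a library. A symbol on several rows took the row with the highest mean. Members, lists and marker genes were chosen with earlier results of these data known. Named by rule are the members, Tfam, the adhesion list, up to 4 of the most abundant genes of each other list (3 for a cell type) and the 5 most correlated genes. Emr1, Siglec1, Cd163, Vsig4, Itgam, Timd4, Spic, Maf, Hmox1, Slc40a1, C1ra, C1s, Tfrc and Cd3e were named after their values were seen.

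Depth was estimated from the first mode of RPKM times transcript length (GENCODE M21, genes with 1 transcript, RPKM below 0.2). It is approximate, since mm9 lengths may differ, and no count intervals were drawn from it. Fragments per member used the longest coding transcript.

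Replicate numbers are shared by the groups. After subtracting group means, deviations correlated at 0.46, 0.17 and 0.53 between libraries numbered 1, 2 and 3, each above 0.1 (WT replicate 2 correlated more with KO replicate 1, at 0.40), so same-numbered libraries were treated as pairs in an alternative fit. The pairing comes from this check and not from a label. The check cannot establish pairs, because deviations within a group cancel out. Libraries numbered 3 that differ from the rest in both groups therefore also raise correlations among the other libraries. Alternatives were another pseudocount, filter, scaling or variance model, a length correction, the replicate block and leaving out libraries. Figures used matplotlib 3.10.9.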

Additional observations from a re-analysis of the deposited data

How the results depend on the processing

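Each of 15 alternatives kept the call of every member (not past an adjusted p of 0.05), the lowest adjusted p being 0.592, for Cd5l without both libraries numbered 3, a setting chosen after seeing the data. Directions held in 148 of 150 fits of single members, and the other 2 were from that same setting: 0.061 for Lyz2 and 0.0044 for Ctss. The cause was not tested. The median over the 10 members was -0.76 with a pseudocount of 0.1, which enlarges differences of low values by construction, -0.18 without both libraries numbered 3, and -0.69 to -0.30 when 1 library was left out (-0.32 without WT replicate 3, -0.30 without KO replicate 3). The count of members with a lower fitted value was 10 except for 8 without both libraries numbered 3. With transcript length removed the median was -0.39 over all rows above 0. Among the tested rows this correction moved C1qa to -0.25, C1qb to -0.42, C1qc to -0.26, Lyz2 to -0.28 and Ctss to -0.015, each by more than 1.5 times. In the fit behind that median it moved them less, to -0.39, -0.56, -0.39, -0.41 and -0.14. The median is therefore not comparable with the values from tested rows. The replicate block, which uses the pairing of numbers, left 0 genes called and changed no call of a member (Cd5l adjusted p = 0.715). Genes called overall numbered 0 to 2 when 1 library was left out (1 without WT replicate 3, 2 without KO replicate 2, 1 without KO replicate 3) and 2 without both libraries numbered 3. None was a member. With so few genes called in any setting, the kept calls of the members say little about their stability. Leaving out WT replicate 3 moved C1qa, C1qb, Lyz2 and Ctss by more than 1.5 times. Leaving out KO replicate 3 did so for C1qc, Marco, Vcam1, Ctss, Mpeg1 and Csf1r, and leaving out WT replicate 1 for Vcam1, Lyz2, Ctss and Mpeg1. The low depth of Vcam1 and Marco in KO replicate 3 limits those values. The pseudocount of 0.1 enlarged C1qa, Cd5l, Marco, Vcam1, Ctss, Mpeg1 and Csf1r by more than 1.5 times, with Cd5l at -1.63.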

Other observations

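Iron and heme handling in macrophages shares most of its genes with the erythroblast, and this shows in the levels. Ftl1 (6047 to 16862 RPKM in WT, 8292 to 12690 in KO), Fth1, Blvrb and Slc48a1 were far above the macrophage markers. Hmox1, the heme-degrading enzyme that island macrophages also use, was at 6.36, 5.26 and 6.29 RPKM in WT and at 11.2, 15.5 and 5.47 in KO. It was higher in KO replicates 1 and 2 than in any WT library, with a log2 fold change of 0.65 (limma adjusted p = 0.909), opposite in sign to the members. Slc40a1, the iron exporter ferroportin, was at 16.4 to 25.3 RPKM in WT and 19.6 to 25.1 in KO.

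Other complement genes were low. Among 11 of them none had a mean of 1 RPKM. The most abundant were C3, the component on which the complement pathways converge (0.495 to 1.03 RPKM in WT, 0.192 to 1.08 in KO), and Cfb, a protease of the alternative pathway (0.172 to 0.444 and 0.0895 to 0.771). The proteases C1ra and C1s, which complete the C1 complex, were at most 0.112 RPKM in any library. In this list 2 genes had a lower and 9 a higher fitted value in KO, with a median log2 fold change of 0.0073, but without WT replicate 3 the counts were 7 and 4, so no direction held. Stromal collagens were highest in KO replicate 2, with Col1a1 at 1.35 RPKM there and 0.0285 in WT replicate 2.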
